A study of Mus musculus with 10 samples.

Results

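Cholesterol-loaded mouse aortic smooth muscle cells that had then been kept with HDL were compared with cells that had never been loaded, to describe which differences from the unloaded state remain. The comparison rests on 4 arrays chosen by their labels, 2 from the HDL group and 2 from the baseline group, of 10 deposited array columns in all. The cells were primary smooth muscle cells from thoracic aortas of C57BL/6 mice aged 8 weeks, passaged at most 5 times and grown in medium with 10% fetal bovine serum. Baseline cells were harvested without loading, and the labels list no carrier or waiting time for them. HDL cells first received 10 µg/mL cholesterol in a complex with methyl-β-cyclodextrin (1 to 6 molar ratio) for 72 h, then 100 µg/mL human HDL for a further 72 h, so they were harvested 144 h after loading began. Another group of 2 arrays, loaded for 72 h and harvested before any HDL, is given beside the others. Cells that received only the carrier, or that were cultured for 144 h unloaded, were not analysed here. Cholesterol, carrier, HDL and time in culture therefore cannot be told apart in the differences of HDL cells from baseline. The arrays harvested before HDL show only which differences were present by then. The labels give neither the sex of the mice nor the isolate of the cells, so a different origin of the groups cannot be told apart either. The labels do not say whether the replicates came from separate cultures or animals, so the p-values measure only the spread between these arrays, which may be technical.

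HDL, high-density lipoprotein, takes up cholesterol that cells release through transporters in their plasma membrane, and is known for carrying it away from the vessel wall. Aortic smooth muscle cells are contractile in the healthy artery. In culture, and when loaded with lipid in a plaque, they can lose contractile proteins and take on features of other cell types, including macrophages. The cell cycle runs from G1, when a cell grows, through S, when it copies its DNA, to G2 and M, when it prepares for and carries out division.

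The deposited values are log2 values from Robust Multichip Average (RMA), which brings all arrays to one distribution. The median on the 6 arrays normalized together lay between 6.93 and 6.98. The HDL arrays differed more between replicates than the other groups: 153 of 16860 genes differed by at least 1 on the log2 scale between the HDL arrays, against 3 between the baseline arrays and 17 between the cholesterol arrays. The files give genes by Ensembl identifier without names, and the reference table used here matched 0 of the 16860 identifiers. Smooth muscle, macrophage and other markers named by symbol could therefore not be looked up, and the labelled cell type was not checked against its markers. Gene function could be described only for cell cycle genes, from an external list given by identifier. For the other genes, the size, the level and the replicate spread of the remaining differences are given.

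After loading and HDL, about 1 gene in 5 differed from the unloaded cells. Of 16860 genes, 3370 (20%) were called by limma at a Benjamini-Hochberg adjusted p under 0.05, with 1540 higher (9.13% of all genes) and 1830 lower (10.9%). The lower genes were the more numerous in this fit, an order that turned in some alternatives. The median difference was 0.78 on the log2 scale among higher genes and -0.60 among lower genes, and the smallest called differences were 0.29 and 0.30 in size. The median over all genes, called or not, was -0.02. These counts depended on the baseline arrays: with baseline replicate 1 left out 1436 genes were called, 777 higher and 659 lower, and with baseline replicate 2 left out 1263, 727 higher and 536 lower. In such fits the spread of the lone array is taken to equal that of the remaining groups. Ordinary one-way statistics per gene, which borrow no spread from other genes, called 747, with 407 higher and 340 lower.

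The balance between higher and lower genes turned with the size of the difference. Below 0.5 on the log2 scale, 655 genes were called lower and 354 higher. Between 0.5 and 1, 848 were lower and 614 higher. At 1 or more the order was the other way round, with 572 higher (3.39% of all genes) and 327 lower (1.94%). At 2 or more, 179 genes were higher and 58 lower. At 3 or more there were 81 higher and 10 lower, and at 4 or more 39 and 3, so that 92.9% of the called differences of that size were rises. For 348 higher and 154 lower genes the whole 95% interval of the difference lay beyond 1, each interval taken without adjustment for the number of genes.

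**Figure D1:**
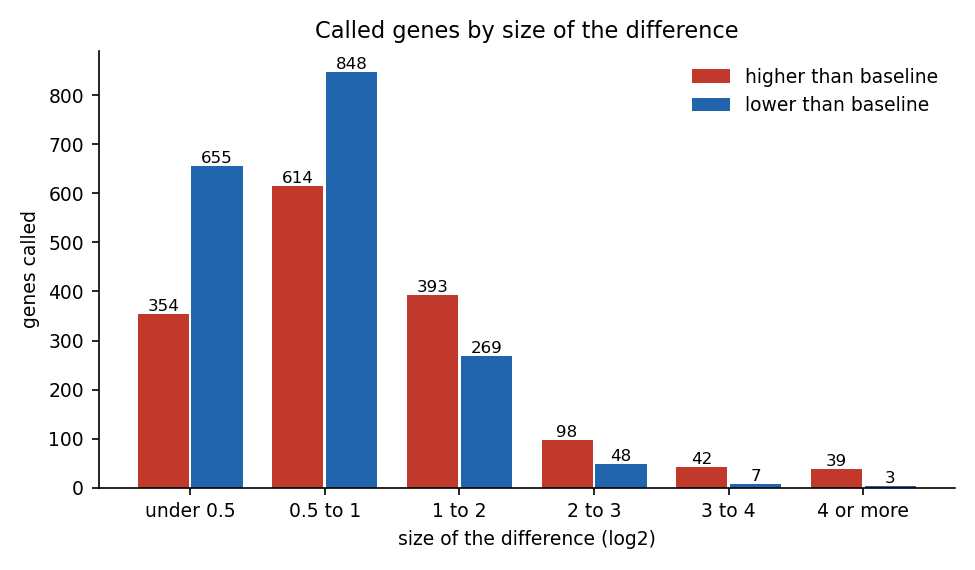
Number of genes called between HDL-treated and baseline cells (vertical axis) in bins of the size of the difference on the log2 scale (horizontal axis), red for genes higher than baseline and blue for lower. Lower genes are more numerous below 1, with 848 against 614 between 0.5 and 1, and higher genes above it, with 39 against 3 at 4 or more.

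The remaining differences were spread unevenly over signal levels. When genes were ranked by their mean over all 6 arrays and divided into 4 level classes of 4215 genes, 3.37% of the dimmest class were called. The share was 17.0% in the next class, 29.0% in the one above it and 30.6% in the brightest. In the dimmest class 54 genes were higher and 88 lower, and in the brightest 568 and 720. Rises of at least 3 were found in the upper part of the range, with 42 in the brightest class, and 34, 5 and 0 in the classes below it. The falls of at least 3 numbered 1 in the brightest class, and 3, 6 and 0 in the classes below it. A gene with a large rise is placed in a brighter class by the rise itself, because the mean holds the HDL and cholesterol arrays too. The median half-width of the 95% interval was 0.25, 0.27, 0.26 and 0.24 in the classes from dimmest to brightest. RMA's background step compresses changes of dim genes, and its part in the low share of the dimmest class was not tested.

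**Figure D2:**
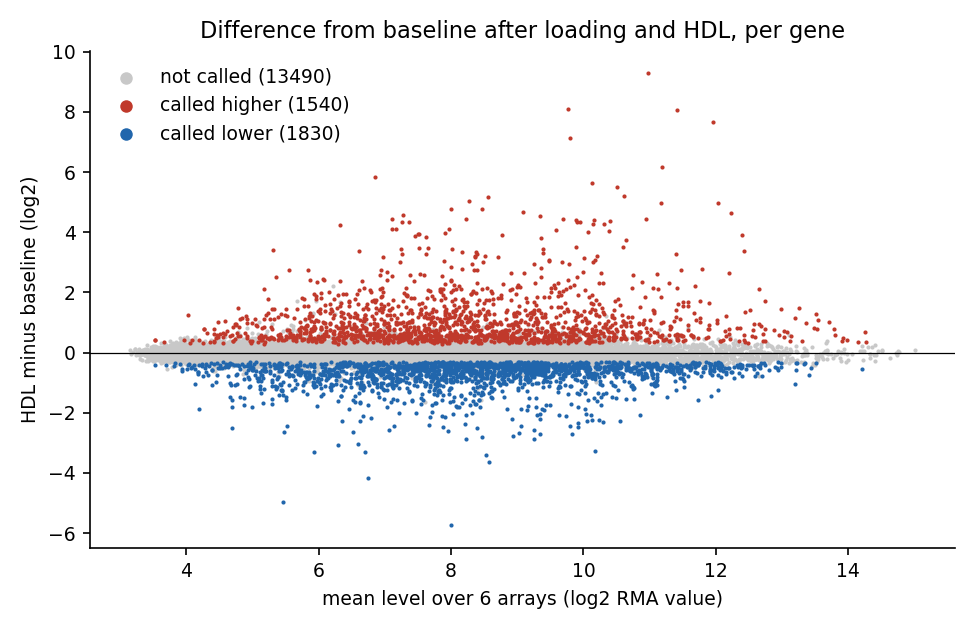
Difference between HDL-treated and baseline cells on the log2 scale (vertical axis) against the mean log2 RMA value over 6 arrays (horizontal axis), 1 point per gene. The 1540 genes called higher (red) reach 9.28, the 1830 called lower (blue) reach -5.74, and the 13490 genes not called are grey.

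At baseline the higher genes had signals in the middle of the range of an array and the lower genes in its upper part. Array signals also depend on how well each gene's probes bind, so percentiles describe signal and not transcript number. Genes called higher had a median log2 value of 7.48 at baseline, the 56.3rd percentile of an array, and of 8.65 after HDL, the 71.6th percentile. Genes called lower had a median of 8.89 at baseline (74.5th percentile) and 8.09 after HDL (64.3rd percentile). The 81 genes higher by at least 3 rose from a median of 6.49 at baseline (44.9th percentile) to 10.85 after HDL (92.5th percentile). The 10 genes lower by at least 3 went from a median of 9.23 (78.5th percentile) to 5.55 (32.6th percentile). These levels follow in part from choosing the genes on their difference.

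The 2 largest rises and the 2 largest falls are given by identifier, with values on all arrays. ENSMUSG00000026822_at had log2 values of 4.84 and 4.46 on the baseline arrays and of 14.06 and 13.81 on the HDL arrays. It lay at 14.42 and 14.28 on the cholesterol arrays. Both HDL values were thus far above both baseline values and a little below both cholesterol values. The difference from baseline was 9.28 ± 0.15 (SE; limma adjusted p = 4.06e-07), and took the gene from the 19.2nd to the 99.8th percentile of the arrays. The files hold no detection call, and a baseline signal this dim was not shown to be above background, so the true difference may be larger. The HDL and cholesterol arrays differed by -0.42 ± 0.15 (SE; limma adjusted p = 0.209), which did not pass the test.

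ENSMUSG00000029371_at had values of 4.07 and 4.09 at baseline, 13.03 and 13.05 after cholesterol, and 12.06 and 12.30 after HDL. The 3 groups did not overlap, with HDL close to the loaded cells and far from baseline. It was higher than baseline by 8.10 ± 0.10 (SE; limma adjusted p = 1.16e-07), where the same limit holds for its dim baseline signal. It was lower than in loaded cells by a smaller step, with an HDL minus cholesterol difference of -0.87 ± 0.10 (SE; limma adjusted p = 0.00976). The gene lay at the 8.94th percentile at baseline and the 97.5th after HDL.

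ENSMUSG00000021390_at gave the largest fall, from 11.95 and 11.70 at baseline to 6.00 and 6.17 after HDL, with 6.09 and 6.07 after cholesterol. The HDL arrays lay on either side of the cholesterol arrays, and all 4 lay below both baseline arrays. The difference from baseline was -5.74 ± 0.12 (SE; limma adjusted p = 7.97e-07), a 53.4-fold lower value, and the HDL minus cholesterol difference was 0.01 with a SE of 0.12 (limma adjusted p = 0.983).

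ENSMUSG00000069045_at read 8.82 and 8.73 at baseline, 3.70 and 3.86 after cholesterol, and 3.75 and 3.87 after HDL. It left the 73.2nd percentile for the 4.64th, among the dimmest values on the arrays. The difference from baseline was -4.96 ± 0.10 (SE; limma adjusted p = 7.97e-07), and the HDL minus cholesterol difference was 0.03 with a SE of 0.10 (limma adjusted p = 0.925). At the level of the dimmest probes, the arrays cannot show whether the gene was detected at all after loading. The labels give neither the sex of the mice nor the isolate of the cells in each group. A different origin of the cells therefore cannot be told apart from the treatment, for this gene or for any other difference from baseline.

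**Figure D3:**
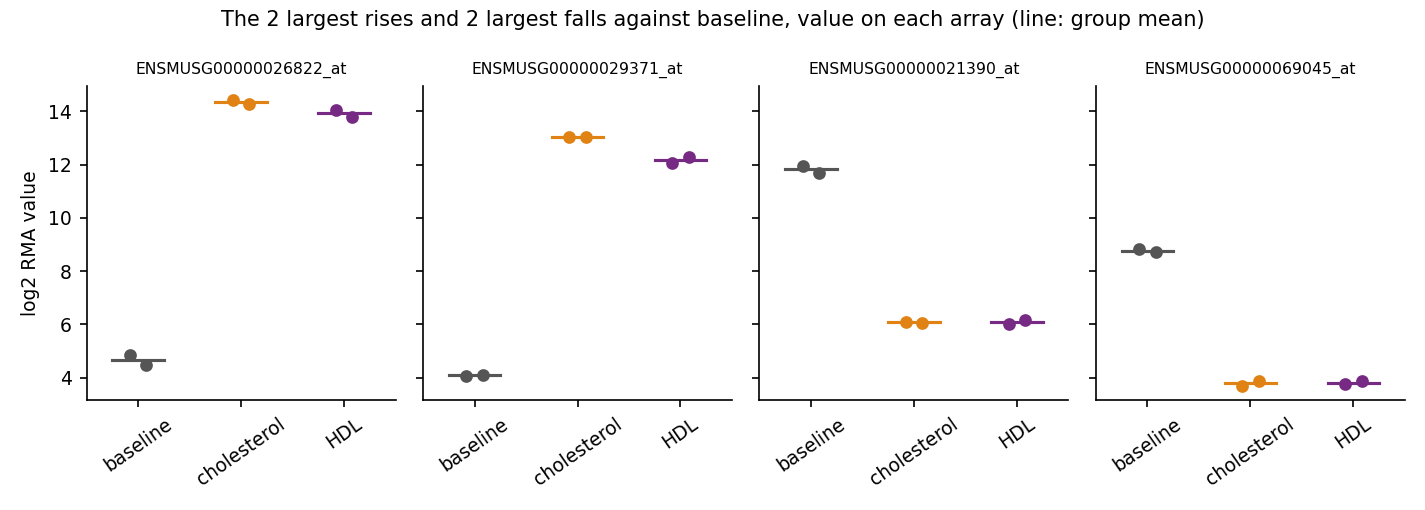
Log2 RMA value (vertical axis) of the 2 genes with the largest rise and the 2 with the largest fall against baseline, on each array of the baseline, cholesterol and HDL groups. Points are arrays and lines are group means, and in each panel the HDL points lie near the cholesterol points and far from the baseline points, at 14.06 and 13.81 against 4.84 and 4.46 in the first panel.

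The loaded cells harvested before HDL show where the differing genes had stood at that time. Both comparisons with baseline use the same baseline arrays, so the values are given side by side as a description, with no test. Genes called higher after HDL had median levels of 7.48 at baseline, 8.39 after cholesterol and 8.65 after HDL. Genes called lower had medians of 8.89, 8.09 and 8.09. The median difference from baseline of the higher genes was 0.67 after cholesterol and 0.78 after HDL, and that of the lower genes -0.61 and -0.60.

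Each called gene was also placed on a scale from 0, the baseline mean, to 1, the HDL mean, by its cholesterol mean. The median position was 0.86 for higher genes, with quartiles of 0.52 and 1.16, and 0.98 for lower genes, with quartiles of 0.72 and 1.26. Cholesterol means at or beyond the HDL mean were found for 586 higher and 878 lower genes. A position under 0.5, nearer to baseline than to HDL, was found for 363 higher genes (23.6%) and for 208 lower genes (11.4%). Among genes higher by at least 1 this share was 26.4%, and among those lower by at least 1 it was 7.03%. The cholesterol mean was on the far side of baseline for 58 higher and 26 lower genes. Noise in the baseline and HDL means shifts the ends of this scale, and the genes were chosen on the distance between them. Without HDL replicate 2 the medians for higher and lower genes were 0.63 and 0.77, and without HDL replicate 1 they were 0.92 and 1.05. Each median was taken over the genes called in its own fit.

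**Figure D4:**
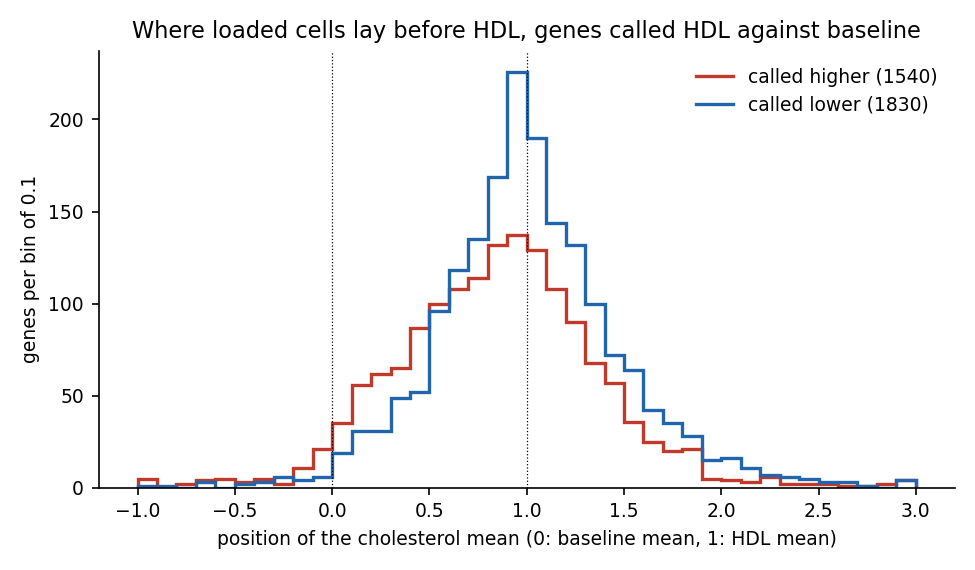
Number of genes (vertical axis, bins of 0.1) by the position of their cholesterol mean between the baseline mean (0) and the HDL mean (1), for genes called higher (red, 1540) and lower (blue, 1830) after HDL; values beyond the axis are counted in the end bins. Both distributions peak near 1, and the higher genes have more members under 0.5, with 23.6% against 11.4% of the lower genes.

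The HDL arrays were not equally far from baseline. The first lay farther from the baseline mean than the second for 1018 of 1540 higher genes (66.1%) and for 1300 of 1830 lower genes (71.0%). Among all genes the first HDL array was the higher one for 51.8%. The median difference of the higher genes was 0.82 on the first array and 0.70 on the second, and that of the lower genes -0.65 and -0.53. Of the 81 genes higher by at least 3, the first array was the higher one for 63, and 14 differed by at least 1 between the HDL arrays. A fit with either HDL array left out also loses the spread between them. Its number of called genes therefore does not measure an array's distance from baseline.

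About as many members of the G2M list (G2 and mitosis) were called lower than at baseline after loading and HDL as were not called. Members of this list, and of the S and G1 lists, were taken from marker pairs of the phases. The function of each member was not checked. Of 91 measured members 45 (49.5%) were called lower, against 10.9% of all genes, 2 (2.20%) were called higher, against 9.13%, and 44 were not called. The median level of the members was 7.55, in the level class below the brightest, where 15.6% of genes were called lower and 13.4% higher. The list mean was 8.13 and 8.21 on the baseline arrays, 7.23 and 7.31 on the cholesterol arrays, and 7.71 and 7.46 on the HDL arrays. The HDL arrays thus lay between the other groups without overlap, the first nearer to baseline. The median difference of the members from baseline was -0.51, with quartiles of -0.99 and -0.10, where all genes had a median of -0.02. Members ranged from -2.58 to 1.80, and 20 were called lower by at least 1. In 63 members (69.2%) both HDL arrays lay below both baseline arrays, against 33.3% of all genes, and in 11 (12.1%) above, against 25.8%. Leaving out baseline replicate 1 gave 28 lower members, leaving out baseline replicate 2 gave 16, and the one-way test per gene called 5.

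The order of the HDL arrays was not the same for the G2M list as for the called genes, a difference that was not tested. For most called genes the first HDL array was the farther from baseline, while the G2M list mean was nearer to baseline on the first. The median difference from baseline was -0.45 on the first and -0.62 on the second, with 72 and 76 members below the baseline mean. The first array read higher than the second in 64 of 91 members, against 51.8% of all genes. Whether this order goes with the cells or with the array cannot be told from 1 pair. Side by side, the median difference from baseline of these members was -0.66 after cholesterol, with 56 called lower (13.1% of all genes were) and 4 higher (10.4%), and -0.51 after HDL. Between HDL and cholesterol 3 members were called higher (1.79% of all genes) and 0 lower (0.949%).

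Most S phase markers were not called. Of 95 measured members 60 were not called, 28 (29.5%) were called lower, against 10.9% of all genes, and 7 (7.37%) higher, against 9.13%. The median level of the members was 8.35, in the level class below the brightest, where 15.6% of genes were called lower and 13.4% higher. The list mean was 8.51 and 8.56 at baseline, 8.26 and 8.29 after cholesterol, and 8.35 and 8.33 after HDL. The groups did not overlap, with both HDL means below both baseline means. In 53 members (55.8%) both HDL arrays lay below both baseline arrays, against 33.3% of all genes, and in 24 (25.3%) above, against 25.8%. The median difference from baseline was -0.15, with quartiles of -0.46 and 0.07, and 2 members were called lower by at least 1. For 79 of 95 members the 95% interval of the difference lay within 1 either way. Lower members numbered 10 when baseline replicate 1 was left out, 6 when baseline replicate 2 was, and 6 with the one-way test per gene.

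Of the 3 lists, the G1 markers had the median nearest to that of all genes. Of 125 measured members 20 (16.0%) were called lower and 15 (12%) higher, against 10.9% and 9.13% of all genes. The median level of the members was 8.76, which lies in the level class below the brightest. In that class 15.6% of genes were called lower and 13.4% higher, so the G1 shares were near those of genes with such signals. The list mean was 8.71 and 8.77 at baseline, 8.60 and 8.56 after cholesterol, and 8.64 and 8.63 after HDL. Members ranged from -2.07 to 1.83, with a median difference of -0.10 and quartiles of -0.33 and 0.09. Both HDL list means lay below both baseline means. In 61 members (48.8%) both HDL arrays lay below both baseline arrays, against 33.3% of all genes, and in 29 (23.2%) above, against 25.8%. For 106 of 125 members the 95% interval lay within 1 either way. With baseline replicate 1 left out 14 members were lower and 3 higher, with baseline replicate 2 left out 9 and 4, and with the one-way test per gene 4 and 2. Fewer dividing cells and less of these RNAs per cell cannot be told apart in bulk samples.

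**Figure D5:**
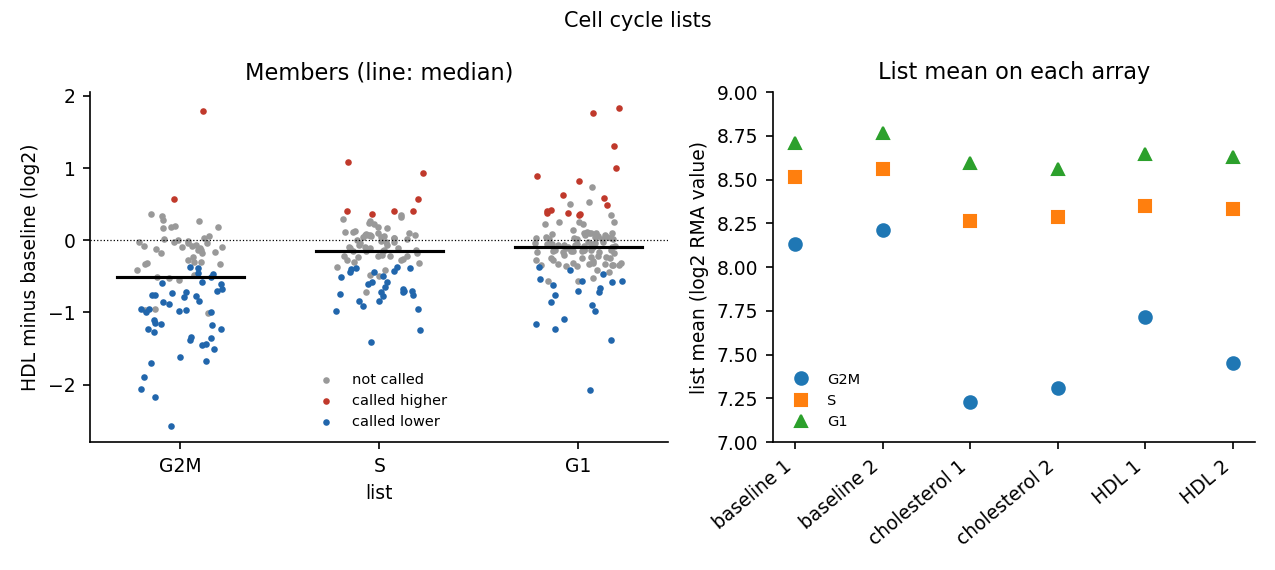
Left, difference between HDL-treated and baseline cells (log2) of each member of the G2M, S and G1 lists, coloured by call, with the list median as a line; right, mean log2 RMA value of each list on each of the 6 arrays (axis from 7 to 9). The G2M list has the lowest median, -0.51, and its HDL arrays, at 7.71 and 7.46, lie between the baseline and the cholesterol arrays.

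For the 13490 genes not called, the intervals bound how large a remaining difference could be. The 95% interval of the difference, without adjustment for the number of genes, lay within 0.5 either way for 10206 of them (75.7%) and within 1 for 13239 (98.1%). The other 251 could not be bounded within 1, and 20 of these had an estimated difference of at least 1. The largest estimate that was not called was 2.20 in size. The half-width of the interval had a median of 0.25 over all genes, with quartiles of 0.22 and 0.31. A further 2149 genes had an unadjusted p under 0.05 without passing the adjusted threshold.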

How the data were processed

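RNA was hybridised to Affymetrix Mouse Genome 430 2.0 arrays. The authors normalized probe intensities with RMA, per the labels, and combined probes by gene through a University of Michigan probe mapping on Ensembl release 59, and they deposited log2 values. The RMA version is not stated in the sources used. The authors normalized 6 arrays in 2 runs, of which the first held only the baseline and cholesterol arrays. The 6 columns of the run that held all 3 groups were used. The other 4 columns repeat the baseline and cholesterol arrays and were left out.

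Limma 3.58.1 in R 4.3.3 was fitted to the deposited log2 values of the 6 arrays (lmFit, then eBayes; group was the sole term, tests were two-sided and no gene was filtered out), with 3 residual and 4.03 prior degrees of freedom. Calls needed an adjusted p under 0.05 by the Benjamini-Hochberg method over 16860 genes. The script was tested on simulated data. The number of arrays limits the precision.

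The identifiers matched 0 entries of the GRCm38.p6 table. The naming rule (largest called rises and falls with groups of arrays apart) was therefore reduced to 2 each way, and 35 functional lists with 682 entries by symbol and the promoter motif search were not used. Cell cycle lists came from the marker pairs of scran 1.30.0 (higher member in at least 10 pairs and in 90% of its pairs, 25 genes in several lists left out): 91 of 95 G2M, 95 of 99 S and 125 of 134 G1 genes were measured. The members and lists were chosen with earlier results of these data known. Alternatives covered the arrays fitted, the test, a minimum change, dim genes, scaling, the prior, array weights, a replicate block and each array left out.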

Additional observations from a re-analysis of the deposited data

How the results depend on the processing

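Without each array in turn, the called genes ranged from 1263 to 4256, the higher genes from 727 to 1922, the lower genes from 536 to 2334, and the lower members of the G2M, S and G1 lists from 16 to 51, 6 to 30 and 9 to 28. Leaving out either cholesterol array amounts to the fit of the baseline and HDL arrays alone (2670 genes), since a lone array adds nothing to the spread. One-way statistics for each gene, which have fewer degrees of freedom, called 747 genes, 407 higher and 340 lower, 250 and 109 of them by at least 1, and 5, 6 and 4 lower members of the G2M, S and G1 lists. A minimum change of 1, stricter by construction, left 899 genes, 572 higher and 327 lower, and 20, 2 and 5 lower members. With genes below the median level left out, which removes members, the G2M list had 26 lower members. Median centring, a second quantile normalization, a trended or robust prior, array weights and the dim-gene filters gave 3009 to 3577 called genes. The 4 identifiers kept their direction and call in every alternative that tested them, with adjusted p from 3.42e-08 to 0.0192; ENSMUSG00000069045_at was not tested with genes below the median left out. The replicate numbers were not taken as pairs, since the replicate deviations of baseline and HDL correlated by 0.01; with the replicate number as a block, 3285 genes were called, 1537 higher and 1748 lower, and 43 G2M members were lower.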
